A study of Homo sapiens with 12 samples.

Results

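The S100 genes encode small calcium-binding proteins. Here 10 of them were followed in a pair of castration-resistant prostate cancer cell lines treated with an siRNA against GATA2 or a non-targeting siRNA. They were S100P, S100A4, S100A6, S100A8, S100A9, S100A10, S100A11, S100A13, S100A14 and S100A16. Members were the array probes named for 1 of these genes and detected (detection p under 0.05 against the negative controls) on 3 or more of 12 arrays. That left 8 of the 10 genes, read by 10 probes, of 11933 genes measured in all (47323 probes are on the array). Among the probes of these 10 genes, members were chosen by the detection p-values and not by a fold change. Detection is therefore given only as a description. The list of 10 genes itself was chosen with earlier results of these data known.

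RNA was measured on Illumina BeadChip expression arrays in 4 groups of 3 arrays each. The groups were MDVR cells with an siRNA against GATA2 (siGATA2), MDVR cells with a non-targeting siRNA (siNT), Abl cells with siGATA2 and Abl cells with siNT. MDVR cells are LNCaP prostate cancer cells kept in 25 microM enzalutamide, an androgen receptor antagonist, for over a year and held in 10 microM of it during the experiments, in 10% fetal bovine serum. Abl (LNCaP-abl) cells are an LNCaP derivative grown without that drug in phenol-red-free medium with 10% charcoal-stripped serum, which is depleted of steroids. The siRNA was used at 25 nM and RNA was taken after 72 h. The labels name 1 siRNA against GATA2. Line, serum and enzalutamide differ together, so their parts in any difference between lines cannot be told apart. The labels do not say whether the 3 samples of a group came from separate cultures, and the p-values then measure only the spread between these samples.

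S100 proteins carry a pair of EF-hand loops that bind calcium, and most work as dimers. Calcium opens a hydrophobic face on the dimer that binds partner proteins such as annexins, ezrin, nonmuscle myosin and p53, and several members are also released from cells, where they are ligands of the receptor RAGE (AGER). They have no enzymatic activity of their own. Most human S100 genes lie in a cluster on the long arm of chromosome 1 beside the genes of the epidermal differentiation complex, whereas S100P lies on chromosome 4. GATA2 is a zinc finger transcription factor that binds GATA motifs and acts with the androgen receptor in prostate cells.

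The stretches of 250 bases before the start sites of S100P, S100A11 and S100A10 are shown because these genes carried the changes after siGATA2 (S100P, S100A11) and the line difference (S100P, S100A10) described below. They are RefSeq sequences of the GRCh38.p14 build, written 5′ to 3′ on the strand of the gene. S100P is at chr4:6693628-6693877 (plus strand), S100A11 at chr1:152037005-152037254 (minus strand) and S100A10 at chr1:151993860-151994109 (minus strand).
S100P: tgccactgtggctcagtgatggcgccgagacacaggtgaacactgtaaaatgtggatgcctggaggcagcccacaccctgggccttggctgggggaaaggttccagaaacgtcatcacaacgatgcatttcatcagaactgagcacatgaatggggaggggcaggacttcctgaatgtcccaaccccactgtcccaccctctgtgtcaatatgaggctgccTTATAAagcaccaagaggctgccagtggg
S100A11: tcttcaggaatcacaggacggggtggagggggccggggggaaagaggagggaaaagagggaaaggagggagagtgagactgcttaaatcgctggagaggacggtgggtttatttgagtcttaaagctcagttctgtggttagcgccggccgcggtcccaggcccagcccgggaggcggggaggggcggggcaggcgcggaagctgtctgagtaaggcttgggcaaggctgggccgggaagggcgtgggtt
S100A10: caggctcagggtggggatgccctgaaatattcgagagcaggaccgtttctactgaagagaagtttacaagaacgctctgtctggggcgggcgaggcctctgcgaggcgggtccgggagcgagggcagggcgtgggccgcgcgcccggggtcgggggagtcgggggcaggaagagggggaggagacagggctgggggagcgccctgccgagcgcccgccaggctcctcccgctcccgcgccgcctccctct

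Capitals in the S100P sequence mark TTATAA, in which the TATA box letters TATAA overlap with their reverse complement TTATA, 29 to 24 bases before the start. Both strands were searched in RefSeq promoter windows, each being the 250 bases before a start. TATAA (or TTATA) was found in 8 of the 15 windows of the 10 genes and in 18.9% of all 35116 windows. The 8 windows belong to 7 genes, because S100A8 windows overlap. Its site 126 to 122 bases before 1 start is the one 29 to 25 bases before another. The S100A11 and S100A10 windows do not hold it, and their printed stretches are 63.6% and 71.2% G and C, against 55.6% for S100P. GATAA (or TTATC) was found in 1 of the 15 windows, that of an S100A13 start, 199 to 195 bases before it, and in 20.4% of all windows. AGAACA (or TGTTCT), a half-site of the androgen receptor, was found in none of the 15 and in 12.4% of all windows. An absent match says only that those letters are not in these windows.

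The gene that the siRNA targets was lower in 1 of the 2 lines. Normalized log2 intensity of the GATA2 probe was 9.09, 8.80 and 8.86 in MDVR siGATA2 cells, against 8.88, 9.16 and 9.26 in MDVR siNT cells. It was 8.43, 8.58 and 8.48 in Abl siGATA2 cells, against 9.12, 8.80 and 8.82 in Abl siNT cells. The arrays overlapped in MDVR (change -0.18, SE 0.12, adjusted p = 0.355) and did not in Abl (change -0.41, SE 0.12, adjusted p = 0.0147, limma). The Abl call was lost in 3 of 25 alternatives in processing or arrays used (adjusted p up to 0.117). Leaving out Abl siGATA2 replicate 2 ended it (adjusted p = 0.0587), as did leaving out Abl siNT replicate 1 (0.080). The 2 changes were not shown to differ (0.23, adjusted p = 0.517). All log2 values below are normalized intensities of 1 probe, adjusted p-values are limma's with Benjamini-Hochberg correction over all 22539 detected probes, and a change was called at an adjusted p under 0.05.

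Each array detected between 19103 and 20513 probes, and arrays of 1 group correlated at 0.989 to 0.992 across probes. All 8 prostate epithelial markers on the fixed list, among them the keratins KRT8 and KRT18 and the lineage factors HOXB13 and FOXA1, were detected on all 12 arrays. Their levels were not alike in the lines. Under siNT 1 was higher in MDVR than in Abl and 4 were lower, KRT8 among these (-1.74). Over all probes 20.9% were higher and 20.2% lower. Of 6 squamous or basal markers 0 have a listed probe. Of 6 fibroblast and endothelial markers only VIM has, and it was detected on all 12 arrays. In a bulk RNA sample, fewer cells with a transcript and less of it per cell cannot be told apart.

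Not every member could be measured. S100A16 has no probe named for it in the probe table and was not analysed here. That table covers 16978 of the 47323 probes, so a gene without a named probe may still be read by an unnamed one. The S100A8 probe (ILMN_1729801) was detected on 0 of 12 arrays, its lowest detection p being 0.0649. S100A9 (ILMN_1750974) stood just inside the rule with 4 arrays, all from Abl cells (3 siGATA2 and 1 siNT), and an additional S100A13 probe (ILMN_1814799) just outside it with 2. S100A4 was detected on 9 arrays and S100A14 on 11, and the 7 other kept probes on all 12. Of 11 further S100 genes, only S100A1 has a listed probe, and it was detected on 2 arrays.

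**Figure D1:**
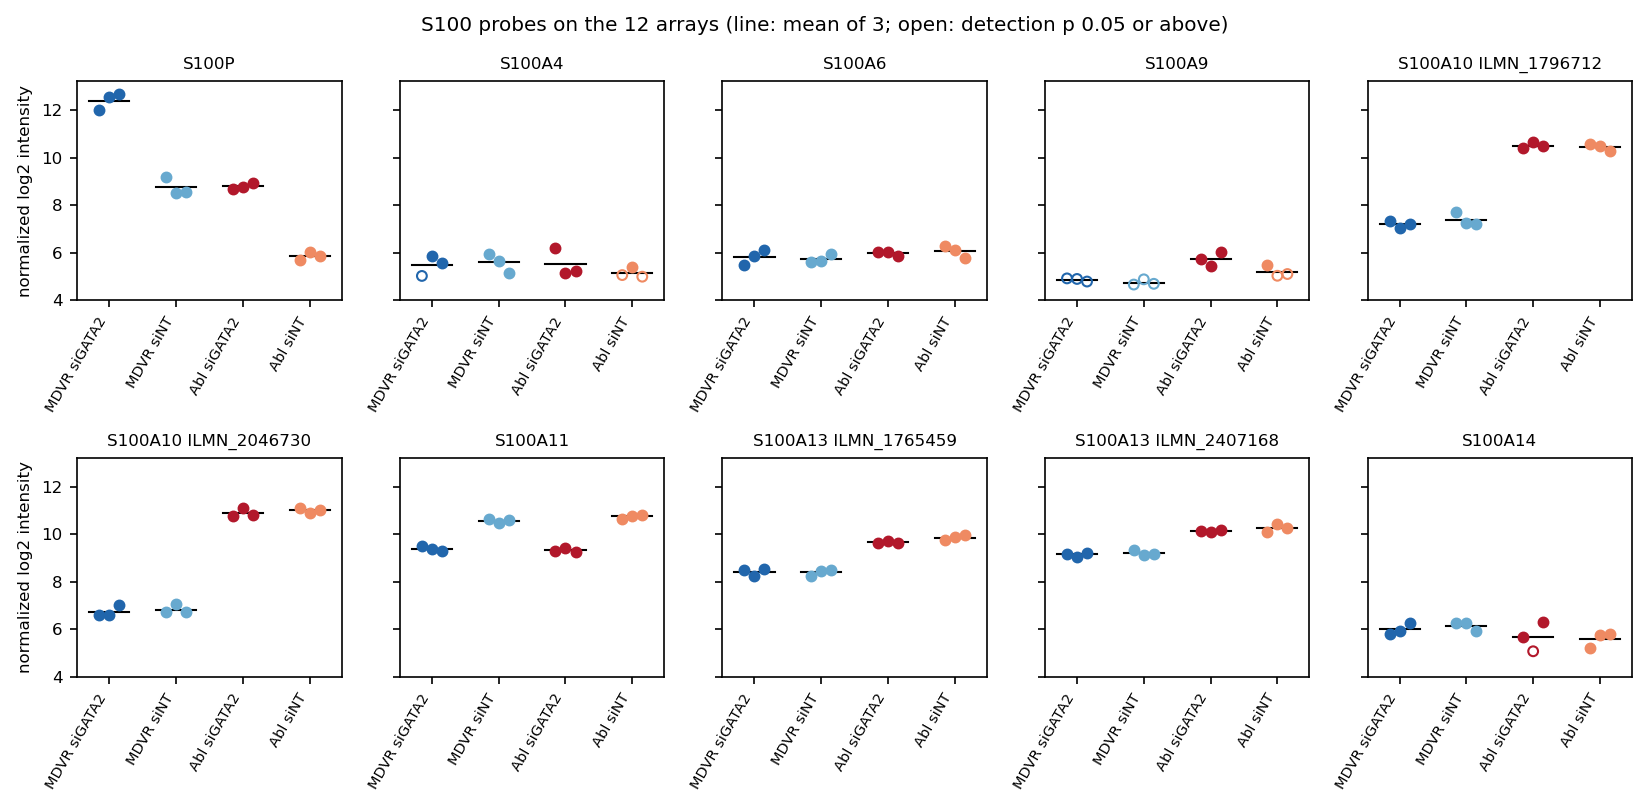
Normalized log2 intensity of the 10 detected S100 probes (vertical axes) on each array, by group (horizontal axes). Points are arrays, open where the detection p was 0.05 or above, and black lines are means of 3. S100P spans 5.69 to 12.68, S100A10 separates the lines, and S100A11 separates siGATA2 from siNT in both lines.

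After siGATA2, S100P rose and S100A11 fell in both lines, whereas no probe of S100A4, S100A6, S100A10, S100A13 or S100A14 was called in either. In MDVR, 1 of the 10 member probes rose (7.96% of all detected probes did) and 1 fell (7.53% of all). In Abl, 2 rose (10.7% of all) and 1 fell (11.4% of all), the additional one being S100A9. S100A9 passed the detection rule mainly through Abl siGATA2 cells, so its place in this count is only a description. The members' shares were close to these backgrounds, and the median change over the 10 probes was -0.07 in MDVR and -0.01 in Abl, against -0.01 and 0.01 over all probes. The arrays of siGATA2 and siNT did not overlap for 2 member probes in MDVR (30.8% of all probes) and for 3 in Abl (35.9% of all).

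S100P, named for the placenta, is a RAGE ligand and an ezrin-binding protein that is often raised in carcinomas. Its probe (ILMN_1801216, gene at chr4:6693878-6697170) read 11.99, 12.53 and 12.68 log2 units in MDVR siGATA2 cells, against 9.19, 8.53 and 8.57 in MDVR siNT cells. In Abl siGATA2 cells it read 8.69, 8.76 and 8.93, against 5.69, 6.05 and 5.87 in Abl siNT cells. Every siGATA2 array was above every siNT array of its line. The MDVR siNT and Abl siGATA2 arrays overlapped, with means of 8.76 and 8.79, and these lie between the MDVR siGATA2 mean (12.40) and the Abl siNT mean (5.87).

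The rise in S100P was 3.63 log2 units in MDVR (SE 0.17, 95% interval 3.28 to 3.99, 12.4-fold, adjusted p = 4.2e-11) and 2.92 in Abl (SE 0.17, 95% interval 2.57 to 3.28, 7.59-fold, adjusted p = 2.1e-10). Among all 22539 detected probes it was the 1st by size of rise in MDVR and number 6 in Abl. The unprocessed intensities were 4322 to 7281 in MDVR siGATA2 cells and 505 to 698 in MDVR siNT cells. In Abl cells they were 476 to 598 with siGATA2 and 152 to 166 with siNT, the last of which lie near the median intensity of an array (126 to 143). The size of the Abl rise depends on how this background is treated: it was 1.71 without background correction and 1.32 on the authors' processed values, against 3.33 and 3.24 for the MDVR rise under the same settings. The rise was called in both lines in all 25 alternatives.

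Whether S100P rose more in MDVR than in Abl depends on the processing. The difference between the changes was 0.71 (SE 0.24, 95% interval 0.21 to 1.21) and was not called (adjusted p = 0.113). It was called with no background correction (1.62, adjusted p = 2.6e-05), with an offset of 50 (1.17, adjusted p = 0.0039) and on the authors' processed values (1.92, adjusted p = 2.9e-06). It was also called without MDVR siNT replicate 2 (0.92, adjusted p = 0.0230) and without MDVR siGATA2 replicate 1 (0.92, adjusted p = 0.0263). No change of any of the 10 probes was called different between the lines, while 3.88% of all probes were.

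**Figure D2:**
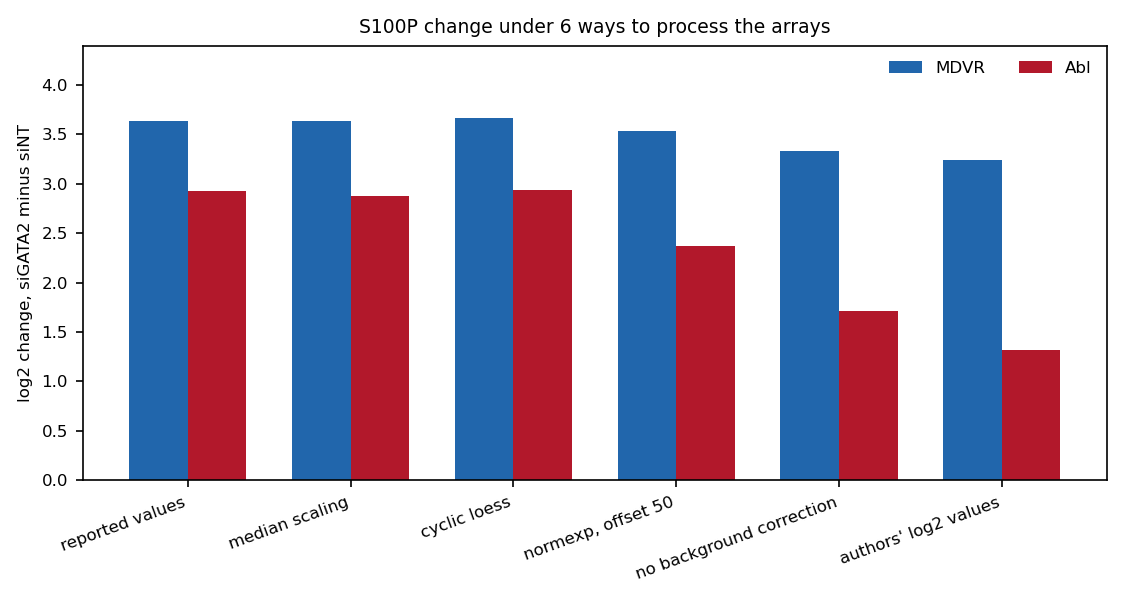
Change of S100P on the log2 scale, siGATA2 minus siNT (vertical axis), in MDVR and Abl cells under 6 ways to process the arrays (horizontal axis). The MDVR bars lie between 3.24 and 3.66 and the Abl bars between 1.32 and 2.93, lowest without background correction and on the authors' values.

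S100A11, which binds annexin A1 and takes part in keratinocyte growth arrest and membrane repair, went the other way. Its probe (ILMN_1750101, gene at chr1:152032506-152037004) read 9.51, 9.38 and 9.29 in MDVR siGATA2 cells, against 10.63, 10.47 and 10.59 in MDVR siNT cells. In Abl siGATA2 cells it read 9.28, 9.41 and 9.26, against 10.63, 10.77 and 10.82 in Abl siNT cells. The siGATA2 arrays of both lines lie together, apart from and below the siNT arrays of both lines. S100A11 fell by 1.17 log2 units in MDVR (SE 0.087, 2.25-fold lower, adjusted p = 1.5e-08) and fell by 1.42 in Abl (SE 0.087, 2.68-fold lower, adjusted p = 3.9e-10). The unprocessed intensities show the same order, 774 to 836 against 1599 to 1830 in MDVR cells and 669 to 765 against 1620 to 1811 in Abl cells, siGATA2 before siNT in each pair. The changes in the 2 lines differed by 0.25 (95% interval -0.01 to 0.51, adjusted p = 0.301). Both falls were called in all 25 alternatives.

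S100A9 forms calprotectin with S100A8 and is abundant in neutrophils and monocytes. Its probe read 4.92, 4.89 and 4.79 in MDVR siGATA2 cells, against 4.66, 4.88 and 4.69 in MDVR siNT cells, and was detected on none of these 6 arrays. In Abl siGATA2 cells it read 5.74, 5.45 and 6.02, against 5.49, 5.03 and 5.10 in Abl siNT cells, and the arrays overlapped. The Abl change of 0.53 (SE 0.19, adjusted p = 0.0491) lost its call in 17 of 25 alternatives, with adjusted p up to 0.218. S100A9 passed the detection rule mainly through Abl siGATA2 cells, so its call is given as a description. Of 10 myeloid markers 4 are listed: CD14 and FCGR3A were each detected on 2 arrays, LYZ on 11 and CD68 on 12. The summed linear level of LYZ and CD68 was 895 to 952 in MDVR siGATA2 cells, 667 to 851 in MDVR siNT cells, 858 to 1105 in Abl siGATA2 cells and 571 to 676 in Abl siNT cells. CD68 rose by 0.53 in Abl (adjusted p = 0.0147), losing its call without Abl siGATA2 replicate 2 or 4 or Abl siNT replicate 3 (adjusted p up to 0.0851), and the part of these markers in the S100A9 value was not tested.

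**Figure D3:**
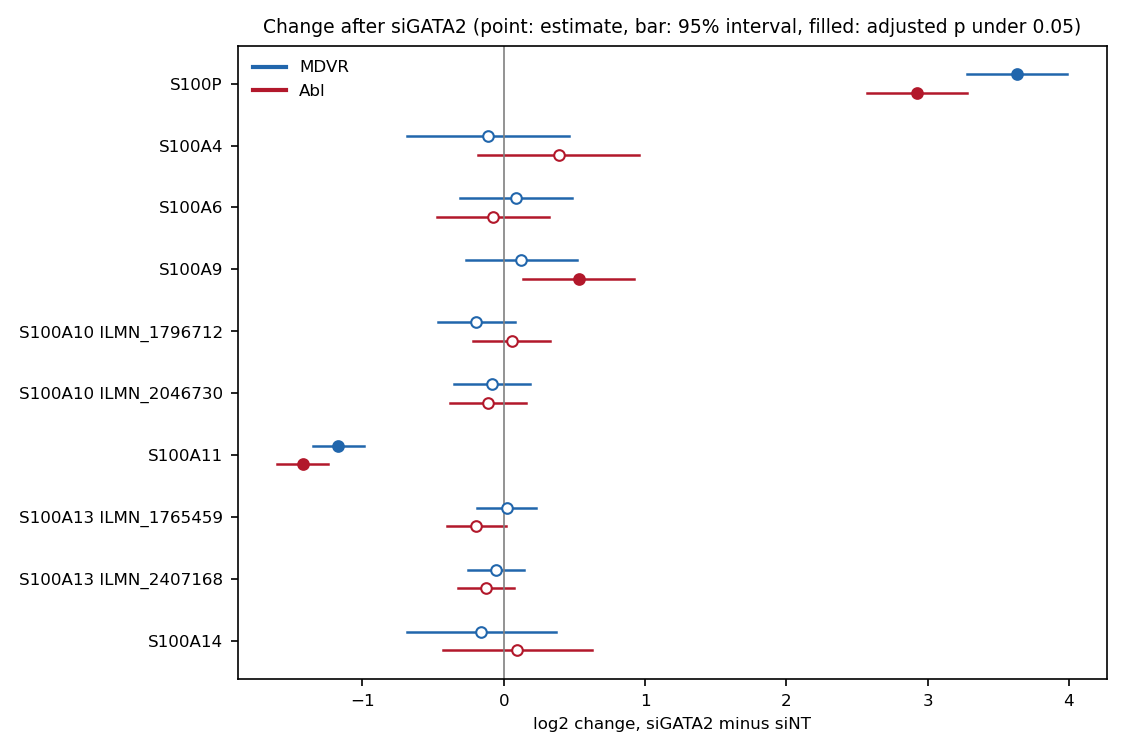
Change of the 10 S100 probes after siGATA2 (horizontal axis, log2 units, siGATA2 minus siNT) in MDVR and Abl cells, with 95% intervals. Filled points have an adjusted p under 0.05. S100P is to the right of 2.5 in both lines and S100A11 to the left of -0.9 in both.

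The remaining members gave small estimates after siGATA2. S100A10 is the light chain of a complex with annexin A2 that carries plasminogen and channels to the plasma membrane. Its 2 probes changed by -0.19 and -0.08 in MDVR and by 0.06 and -0.11 in Abl, with intervals that reach no further than -0.46 and 0.33. S100A13, which takes part in the release of FGF1 and interleukin-1 alpha, changed by 0.02 and -0.06 in MDVR and by -0.19 and -0.13 in Abl on its 2 probes. The Abl arrays of probe ILMN_1765459 did not overlap between siGATA2 (9.62 to 9.73) and siNT (9.74 to 9.95), although the change was not called (adjusted p = 0.191).

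The dim members were measured with wide intervals. S100A6 (calcyclin) changed by 0.09 in MDVR (95% interval -0.31 to 0.48) and by -0.08 in Abl (-0.47 to 0.32). S100A4, a nonmuscle myosin binder known for its part in cell motility and metastasis, changed by -0.11 in MDVR (-0.69 to 0.46) and by 0.39 in Abl (-0.18 to 0.96). S100A14, an epithelial member, changed by -0.16 in MDVR (-0.69 to 0.37) and by 0.10 in Abl (-0.43 to 0.62). These intervals do not show that the 3 genes stayed level.

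Between the lines, S100P was higher and S100A10 and S100A13 were lower in MDVR than in Abl cells under either siRNA. Under siGATA2, 1 member probe was higher (23.8% of all probes were) and 5 were lower (21.5% of all). Among these 5 is S100A9, which passed the detection rule mainly through Abl siGATA2 cells and is counted only as a description. Under siNT, 1 was higher (20.9% of all) and 4 were lower (20.2% of all). Arrays did not overlap between the lines for 6 member probes under siGATA2 (52.7% of all) and for 8 under siNT (48.8% of all). Of the lower calls 4 under either siRNA come from 2 genes with a pair of probes each, so they are not separate evidence.

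S100P was 3.60 log2 units higher in MDVR than in Abl under siGATA2 (SE 0.17, 12.2-fold, adjusted p = 7.6e-13) and 2.89 higher under siNT (SE 0.17, 7.43-fold, adjusted p = 2.7e-11). The siNT difference was 1.69 without background correction and 1.30 on the authors' processed values. Both were called in all 24 alternatives.

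S100A10 was lower in MDVR on both of its probes. Probe ILMN_2046730 (gene at chr1:151982915-151993859) read 6.60, 6.61 and 7.00 in MDVR siGATA2 cells, against 10.78, 11.12 and 10.79 in Abl siGATA2 cells. It read 6.70, 7.04 and 6.70 in MDVR siNT cells, against 11.09, 10.89 and 11.03 in Abl siNT cells. All 6 MDVR arrays lie below all 6 Abl arrays. The differences were -4.16 under siGATA2 (SE 0.13, 17.9-fold lower, adjusted p = 1.1e-15) and -4.19 under siNT (SE 0.13, 18.2-fold lower, adjusted p = 1.0e-15). The other probe, ILMN_1796712, gave -3.31 (9.90-fold lower) and -3.06 (8.33-fold lower), so the probes share the direction and disagree on the size. The size also depends on how the background is treated, since the unprocessed means of ILMN_2046730 were 225.8 in MDVR siGATA2 cells, against 1957 in Abl siGATA2 cells, and 234.4 in MDVR siNT cells, against 1999.5 in Abl siNT cells. On the authors' processed values this probe gave -2.83 under siGATA2 and -2.90 under siNT, and ILMN_1796712 gave -2.30 and -2.16. Both probes were called under either siRNA in every alternative run.

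S100A13 was lower in MDVR on both of its probes. Probe ILMN_2407168 (gene at chr1:153618799-153634361) read 9.18, 9.05 and 9.20 in MDVR siGATA2 cells, against 10.11, 10.08 and 10.17 in Abl siGATA2 cells. It read 9.33, 9.11 and 9.17 in MDVR siNT cells, against 10.08, 10.41 and 10.26 in Abl siNT cells. The lines did not overlap. The differences were -0.98 under siGATA2 (SE 0.095, adjusted p = 4.5e-08) and -1.05 under siNT (SE 0.095, adjusted p = 1.9e-08), and -1.25 and -1.46 on probe ILMN_1765459. All of them were called in every alternative run.

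S100A9 was detected on no MDVR array, so its MDVR level is only bounded and no fold is given. The fitted difference was -0.87 under siGATA2 (adjusted p = 0.00073), which shrank to -0.17 on the authors' processed values. Under siNT it was not called (-0.46, adjusted p = 0.0561) but was in 8 of 24 alternatives. The unprocessed means lie close together, at 140.1 in MDVR siGATA2 cells against 162.5 in Abl siGATA2 cells, and 135.6 in MDVR siNT cells against 139.3 in Abl siNT cells. The same caution on its selection holds. S100A11 was not called between the lines (0.07, interval -0.11 to 0.26, under siGATA2, and -0.18, interval -0.36 to 0.00, under siNT). S100A14 was estimated 0.31 higher in MDVR under siGATA2 (adjusted p = 0.347, called in 1 of 24 alternatives, without Abl siGATA2 replicate 4) and 0.56 higher under siNT (adjusted p = 0.0827), the siNT estimate called in 3 of 24 alternatives, among them without Abl siGATA2 replicate 3 or 4. S100A4 and S100A6 were called under neither siRNA.

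**Figure D4:**
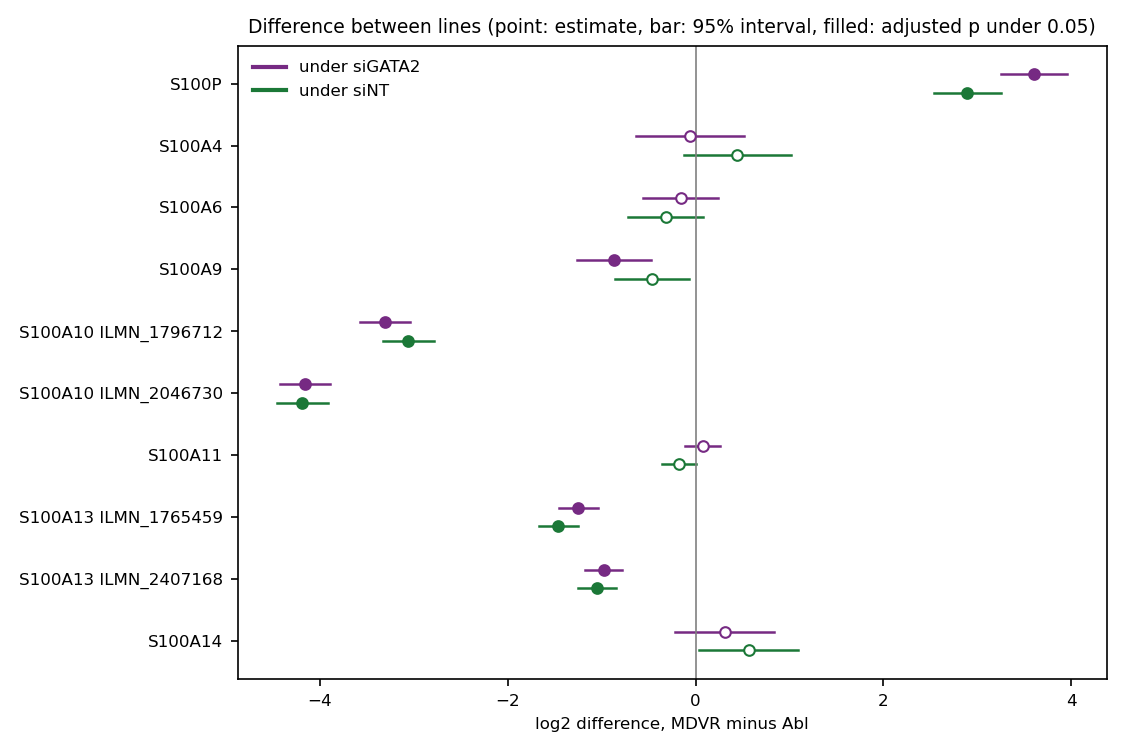
Difference between the lines for the 10 S100 probes (horizontal axis, log2 units, MDVR minus Abl) under siGATA2 and under siNT, with 95% intervals. Filled points have an adjusted p under 0.05. S100P is near 3 to 4, the S100A10 probes between -3 and -4.3, and the S100A13 probes between -1.46 and -0.98.

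Among the proteins that S100 dimers bind, AHNAK and ALCAM rose in both lines. AHNAK, a giant scaffold recruited by the S100A10 and annexin A2 complex, had a mean of 9.55 in MDVR siGATA2 cells and 8.13 in MDVR siNT cells, and of 6.66 in Abl siGATA2 cells and 5.75 in Abl siNT cells. It rose by 1.42 in MDVR (SE 0.14, adjusted p = 5.2e-07) and by 0.91 in Abl (SE 0.14, adjusted p = 5.5e-05), and it was 2.39 higher in MDVR than in Abl under siNT. The Abl rise was 0.25 at its smallest over the alternatives, still called. Of 22 partners and receptors 16 were measured, each by its brightest probe: in MDVR 3 rose and 0 fell (genes over the whole array, 10.3% and 9.28%), in Abl 4 rose and 0 fell (13.6% and 14.6%). The list's median change was 0.01 in MDVR and 0.11 in Abl, against 0.00 in both over all genes.

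Annexin A2 itself, the partner of S100A10, was not called for siGATA2 (0.14 in MDVR, 0.21 in Abl). It was not called between the lines either (0.18 under siGATA2, 0.25 under siNT). Its probe was dim, with group means of 4.95 to 5.35. It was detected on 8 arrays in all and on 1 of 3 Abl siNT arrays. Each of these estimates has an SE of 0.27, so they do not show that annexin A2 stayed level. Annexin A5, a phosphatidylserine binder, rose by 0.61 in Abl (adjusted p = 0.00011). SUGT1, a co-chaperone that binds S100A6, rose by 0.54 in MDVR (adjusted p = 0.0298), and the adhesion molecule ALCAM rose by 0.39 in MDVR and by 0.32 in Abl. The SUGT1 call was lost in 6 of 25 alternatives, among them without MDVR siGATA2 replicate 2 or 3 or MDVR siNT replicate 3 or 4 (adjusted p up to 0.122). The ALCAM call was lost in 6 of 25 in MDVR, among them without MDVR siGATA2 replicate 1 or 2 or MDVR siNT replicate 2 (adjusted p up to 0.132), and in 13 of 25 in Abl, among them without any 1 of the 6 Abl arrays (adjusted p up to 0.181). ALCAM was also lower in MDVR than in Abl under siNT (difference -1.96, adjusted p = 1.6e-11).

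MYH9, the nonmuscle myosin heavy chain bound by S100A4 and S100P, was the 1 measured partner whose response was called different between the lines (4.96% of all genes were). It had a mean of 11.85 in MDVR siGATA2 and 12.04 in MDVR siNT cells (not called), and of 12.73 in Abl siGATA2 and 12.31 in Abl siNT cells, where it rose by 0.42 (adjusted p = 0.00056). The difference between the changes was -0.60 (SE 0.11, adjusted p = 0.0029) and was called in all 25 alternatives. The receptor AGER was not called for siGATA2 in either line. Its MDVR estimate was -0.51 (SE 0.21, adjusted p = 0.107), which does not show that AGER stayed level there. Under siNT its fitted level was 0.53 higher in MDVR than in Abl (adjusted p = 0.0460). The AGER probe was dim, with group means of 4.65 to 5.32. It was detected on 3 MDVR siNT arrays, 1 MDVR siGATA2 array and 0 arrays of either Abl group. A fall in Abl could therefore not be seen.

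Of 25 other EF-hand proteins on the list 18 were measured. In MDVR 5 rose and 2 fell (genes over the whole array, 10.3% and 9.28%), and in Abl 9 rose and 1 fell (13.6% and 14.6%). The list's median change was 0.14 in MDVR and 0.27 in Abl, against 0.00 in both over all genes. EFHD1, a mitochondrial calcium sensor, rose by 0.75 in MDVR (adjusted p = 5.4e-06) and by 1.00 in Abl (adjusted p = 6.1e-08). EFHD2, an actin-binding relative of it, rose by 0.72 in MDVR and by 0.97 in Abl. SDF4 (Cab45), a Golgi calcium binder, rose by 0.39 in MDVR and by 0.53 in Abl, and the calpain small subunit CAPNS1 rose by 0.48 in Abl. The counts in either direction, 7 in MDVR and 10 in Abl, were 4 and 6 with no trend in the variance model. The MDVR count was also 3 without MDVR siNT replicate 2, and 4 without MDVR siNT replicate 4 or MDVR siGATA2 replicate 2. EFHD1 was lower in MDVR than in Abl under siGATA2 (difference -1.83) and under siNT (difference -1.58).

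**Figure D5:**
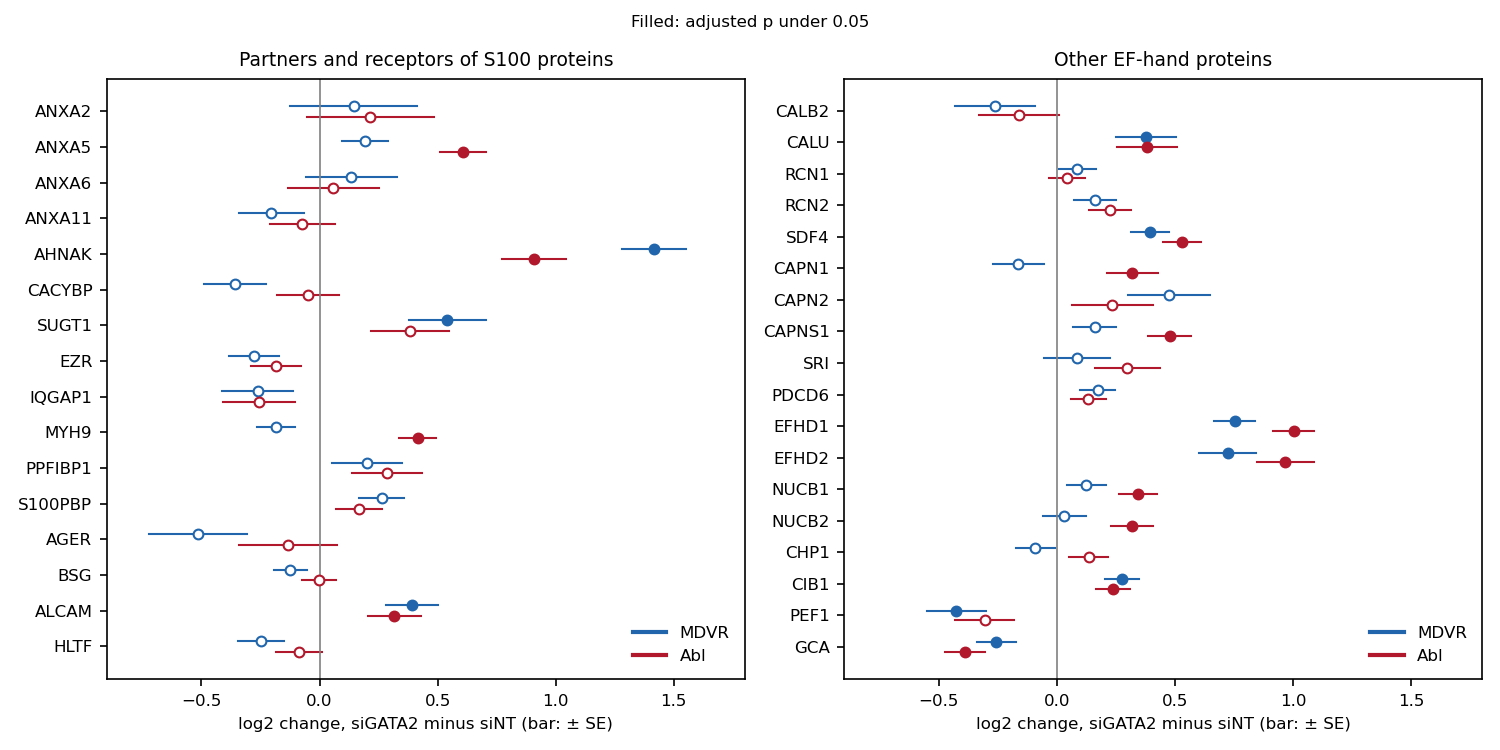
Change after siGATA2 (horizontal axes, log2 units, siGATA2 minus siNT, bars of 1 SE) for the measured S100 partners and receptors and the other measured EF-hand proteins, in MDVR and Abl cells. Filled points have an adjusted p under 0.05. AHNAK, EFHD1 and EFHD2 are filled and to the right of 0.5 in both lines.

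The genes beside S100P were all measured. Of 10, the nearest 5 protein-coding genes on each side, 4 rose and 0 fell in MDVR (genes over the whole array, 10.3% and 9.28%), and 2 rose and 1 fell in Abl (13.6% and 14.6%), the Abl counts being near this background. Their median change was 0.18 in MDVR and 0.10 in Abl. MAN2B2, a lysosomal mannosidase, rose by 0.81 in MDVR (adjusted p = 2.7e-06) and by 0.94 in Abl (adjusted p = 1.8e-07), and WFS1, an ER membrane protein, rose by 0.54 in MDVR and by 0.67 in Abl. MRFAP1L1 (0.40) and BLOC1S4 (0.28) rose in MDVR and TBC1D14 fell by 0.30 in Abl. The BLOC1S4 call was lost in 13 of 25 alternatives, among them without MDVR siGATA2 replicate 2 or 3, MDVR siNT replicate 3 or 4, any 1 of the 3 Abl siGATA2 arrays or Abl siNT replicate 2 (adjusted p up to 0.207). The TBC1D14 call was lost in 6 of 25, among them without Abl siGATA2 replicate 2 or 3 or Abl siNT replicate 3 (adjusted p up to 0.111). Of the 10 genes beside S100P, 3 were higher and 1 was lower in MDVR than in Abl under siNT. Under siGATA2 4 were higher and 1 was lower. Over all probes the shares were 20.9% and 20.2% under siNT, and 23.8% and 21.5% under siGATA2. These are shares of probes, whereas the neighbours are counted as genes. With 1 probe a gene, 6095 were called in either direction under siNT and 6622 under siGATA2, against 11933 genes measured. The higher ones under siNT were MRFAP1L1 (0.51), MRFAP1 (0.33) and BLOC1S4 (0.32). MAN2B2 did not share the line difference of S100P, being lower in MDVR under siNT (-0.60, adjusted p = 1.4e-05). Of 63 genes between and beside the chromosome 1 members 11 were measured, and 0 rose and 0 fell in MDVR, while 1 rose and 2 fell in Abl, against the same shares over all genes. The 2 that fell were ILF2 (-0.31) and C2CD4D (fitted change -0.58). C2CD4D was detected on 0 of 3 Abl siGATA2 arrays, against 3 of 3 Abl siNT arrays, so its level after siGATA2 is only bounded. Its call was lost in 13 of 25 alternatives, among them without any 1 of the 6 Abl arrays (adjusted p up to 0.135). The 1 that rose was SPRR1A, a cornified envelope precursor of the epidermal differentiation complex (0.57, adjusted p = 0.0259). The SPRR1A call was lost in 5 of 25 alternatives, among them without Abl siGATA2 replicate 3 or 4 or Abl siNT replicate 1 (adjusted p up to 0.350). Without Abl siGATA2 replicate 3 or 4 or Abl siNT replicate 1 the Abl count of 3 was 1. SPRR1A was also the only one of the 3 measured genes of that complex to be called.

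The genes most like each member over the 12 arrays were found for the 4 genes whose group means span more than 1 log2 unit. These correlations describe arrays in 4 clusters that share their groups. S100P was most like SH3KBP1, an endocytic adaptor (r = 0.984), LGMN, a lysosomal protease (r = 0.978), and GSTA1, a glutathione transferase (r = 0.978). S100A11 was most like ODAM (r = 0.994), TMEM134 (r = 0.990) and MAPKAPK3, a stress-activated kinase (r = 0.984), and ODAM was detected on no siGATA2 array of either line. S100A10 was most like CDH3 (P-cadherin, r = 0.998), which was detected on no MDVR array, and the near-identical cancer-testis genes GAGE12J (r = 0.997) and GAGE12G (r = 0.996), whose signals may be shared. S100A13 was most like SNHG9 (r = 0.990), ADAM23 (r = 0.990) and GTF2A2 (r = 0.989).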

How the data were processed

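Per the labels' protocols, RNA (average integrity score 9.9) was amplified, labelled with biotin and hybridised, 1 array per sample. The authors deposited, for 47323 probes, intensity on a linear scale without normalization, and next to it a detection p-value that moves in steps of 1 in 770. The authors also deposited processed log2 values of 23043 probes (median 8.02). The submitters' processing notes name lumi, without settings, so these values served as an alternative.

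From the deposited intensities, log2 values were computed with neqc (limma 3.58.1, R 4.3.3; offset 16, negative-control levels from the detection p-values, quantile normalization). Probes detected on at least 3 arrays were kept (22539). Symbols came from GEO's platform annotation of 16978 probes, 16973 of them with 1 symbol and 5 with several; the remaining probes are unnamed here. The annotation gives no probe position, so the exon or UTR that a probe reads is not stated.

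The 12 arrays were fitted with 1 mean for each of the 4 groups in a linear model (8 residual degrees of freedom), with eBayes and a trend; the fit was first tested on simulated data. The contrasts were siGATA2 minus siNT in MDVR and in Abl, the difference of these changes, and MDVR minus Abl under each siRNA; the contrasts share arrays. Member probes were fitted singly, and gene lists used the brightest kept probe of each symbol (11933 genes).

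Members and lists were chosen with earlier results of these data known. Named genes were every member, GATA2, up to 4 genes per list and contrast by adjusted p, and the 3 genes most like each member whose group means span over 1 log2 unit. Alternatives were other background corrections, scalings, detection filters, probe summaries, variance models, replicate blocks and leaving out each array. The number of arrays limits the precision: the median SE was 0.166 for a change within a line and 0.235 for a difference between changes.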

Additional observations from a re-analysis of the deposited data

Results flagged for a closer look

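The response of MYH9 to siGATA2 differed between the lines by a direct test: the change in MDVR minus the change in Abl was -0.60 log2 units (SE 0.11, adjusted p = 0.0029, limma). None of the 10 S100 probes met this criterion.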

How the results depend on the processing

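Of 1210 values of the S100 probes under the alternatives, 1175 stayed on the same side of the threshold, 17 lost a call, 18 gained one and 0 called values changed sign. All 17 losses concern S100A9 in Abl. The difference between the lines' responses had 0 member genes called (875 probes over the array at an adjusted p under 0.05), and 1, S100P, with no background correction, with an offset of 50, on the authors' processed values and with the replicate block within each line (0.98, adjusted p = 0.0232), though not with the block across groups (0.98, adjusted p = 0.0915). Member genes are counted here by the brightest probe of each of 8 genes, so S100A10 and S100A13 count once each. Leaving out 1 array gave 0 to 1 for that difference (4.96% of all genes were called with all 12 arrays). For siGATA2 in Abl it gave 2 to 3, against 3 with all 12 arrays (13.6% of all genes rose and 14.6% fell). For MDVR minus Abl under siNT it gave 3 to 5, against 3 (20.9% of all probes were higher and 20.2% lower). The 5 came without Abl siGATA2 replicate 3 or 4. Those arrays are not part of the siNT contrast, and its estimates stayed at -0.46 for S100A9 and 0.56 for S100A14 without them. They enter only through the estimate of spread that the groups share and the adjustment of p-values. The cause of the other changes was not tested. Over all probes, the difference between responses fell to 300 calls, against 875, with a replicate block across groups. The line contrasts had 6095 and 6622 calls with 1 probe a gene, and 6077 and 6564 with the mean of a gene's probes, against 9255 (siNT) and 10195 (siGATA2), with fewer features tested. Among 61 calls of other named genes, 44 held under all alternatives. The other EF-hand proteins called for siGATA2 were 3 in MDVR under either replicate block, against 7, and in Abl 8 with the block within each line and 6 with the block across groups, against 10. The neighbours of the chromosome 1 members called for siGATA2 in Abl were 1 under either block, against 3, and in MDVR 1 without MDVR siGATA2 replicate 2 and under both ways to reduce probes to genes, against 0. Partners called for siGATA2 in MDVR were 5 with the mean of a gene's probes, against 3. Partners whose response differed between the lines were 2 with no background correction, with an offset of 50 and on the authors' processed values, against 1. Deviations of same-numbered arrays within a line correlated at 0.00 to 0.11 over 4 pairs of arrays. Those of differently numbered arrays correlated at -0.19 to 0.17 over 40 pairs. With so few same-numbered pairs, these values cannot decide whether replicate numbers pair the samples. The block within each line cannot give MDVR minus Abl, so those contrasts have 24 alternatives. Weak signals limit S100A4, S100A6, S100A9 and S100A14, which lie near background.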
